A study of Arabidopsis thaliana with 6 samples.

Results

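The GAUT genes of Arabidopsis thaliana encode galacturonosyltransferases, enzymes of the Golgi that add galacturonic acid to growing wall polysaccharides. The 10 genes described here were taken by locus from the deposited count table, which lists 33602 genes: GAUT1, GAUT4, GAUT7, GAUT8 (also called QUA1), GAUT9, GAUT10, GAUT11, GAUT12, GAUT13 and GAUT14. They were chosen with earlier results of these data known, and all 10 loci were in the table. The GAUT family has 15 genes, and the remaining GAUT2, GAUT3, GAUT5, GAUT6 and GAUT15 are given further on as a comparison.

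RNA was sequenced from 3 libraries of secession cells (SEC), the abscission zone cells on the side of the shed floral organs, and 3 libraries of residuum cells (REC), the abscission zone cells that stay on the receptacle. All plants carried proQRT2::nlsGFP-GUS, a transgene that puts a nuclear GFP-GUS protein under the promoter of QRT2, a polygalacturonase gene active in abscission zones. Flowers were at stage 16 and plants grew at 22 °C with 16 h of light and 8 h of dark, in both groups alike. Cells were sorted by fluorescence as protoplasts, that is, after removal of their walls, and the labels give no number of plants or sorts behind a library, so the p-values reflect the spread among these libraries alone, which may be technical.

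Homogalacturonan, the pectin that fills the middle lamella and holds neighbouring plant cells together, is a chain of galacturonic acid built in the Golgi from UDP-galacturonic acid. GAUT enzymes extend this chain, methyltransferases cap its acid groups, and after secretion methylesterases and polygalacturonases modify and cut it. In abscission zones the pectin between the separating cell layers is broken down, and the comparison of SEC with REC sets the cells on either side of that plane against each other. The family is divided by sequence into clade A (here GAUT1, GAUT4 and GAUT7), clade B (GAUT8, GAUT9, GAUT10 and GAUT11) and clade C (GAUT12, GAUT13 and GAUT14).

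Total counts over genes were 13222538 to 17192864 per SEC library and 13721261 to 14659524 per REC library. Levels are CPM, counts divided by the TMM-scaled library total and given per 1000000. Log2 CPM of the genes tested correlated at 0.954 to 0.970 between SEC libraries, 0.907 to 0.939 between REC libraries and 0.495 to 0.596 between the groups. The 6 listed abscission zone genes (QRT2, IDA, HAE, HSL2, ADPG1 and ADPG2) had summed levels of 7165 to 9117 CPM in SEC and 208 to 508 CPM in REC, with 5 higher in SEC and HSL2 lower. In REC, ADPG1 had 0, 0 and 6 counts and IDA 0, 6 and 105 counts, with the highest value in replicate 3 for both. The 5 epidermal markers summed to 0 to 4.35 CPM in SEC and 43.2 to 71.8 CPM in REC, with 4 of the 5 lower in SEC and PDF1 at 0 counts in each SEC library. The 5 mesophyll markers summed to 52.6 to 61.1 CPM in SEC and 1034 to 2214 CPM in REC, with 5 of 5 lower. Whether the cell types behind these markers bear on the GAUT results was not tested, and in bulk libraries fewer cells of a type cannot be told apart from less RNA per cell.

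All 10 genes share a coding stretch near the 3′ end that is typical of the GT8 glycosyltransferase family. It is shown to make visible both what unites the family and how far its members differ at the level of the reads counted. The in-frame pattern CANNNNNNNGGNNNNNNNAANCCNTGG, searched on the coding strand of the longest coding sequence of each gene in the RefSeq annotation of TAIR10.1, was found in 34 of 27415 coding genes (0.124%). These included all 25 listed GAUT and GAUT-like (GATL) genes. Capitals below mark the bases that the pattern fixes, and lower case the bases that it does not fix.
GAUT1 (chr3:22625395-22625421, plus strand): CActataacGGgaacatgAAaCCaTGG
GAUT4 (chr5:19350398-19350424, plus strand): CActataatGGcaacctcAAaCCaTGG
GAUT7 (chr2:16161949-16161975, minus strand): CActataacGGgaacatgAAgCCgTGG
GAUT8 (chr3:9156523-9156549, plus strand): CActtcaacGGtaacatgAAgCCaTGG
GAUT9 (chr3:481059-481085, plus strand): CAttacaatGGaaacatgAAaCCgTGG
GAUT10 (chr2:8959494-8959520, plus strand): CActtcaatGGgaacttaAAgCCaTGG
GAUT11 (chr1:6397889-6397915, plus strand): CActataatGGtaacatgAAgCCtTGG
GAUT12 (chr5:22219531-22219557, minus strand): CAtttcaatGGaagagctAAgCCtTGG
GAUT13 (chr3:11860-11886, plus strand): CAttacaatGGccaatcaAAgCCgTGG
GAUT14 (chr5:5021526-5021552, minus strand): CActacaatGGgcagtcaAAgCCaTGG

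GAUT13 and GAUT14 were the closest pair, with 87.9% identity over 1599 aligned coding bases, and both rose in SEC (see the values further on), so the extent to which reads can tell them apart matters. Their window around the longest identical coding run, 41 bases, is printed with the 3 differing bases in capitals. The GAUT13 window lies at chr3:9448-9537 on the plus strand and the GAUT14 window at chr5:5024023-5024112 on the minus strand (TAIR10.1), both inside a coding exon.
GAUT13: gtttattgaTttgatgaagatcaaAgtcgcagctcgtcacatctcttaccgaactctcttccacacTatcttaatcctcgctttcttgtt
GAUT14: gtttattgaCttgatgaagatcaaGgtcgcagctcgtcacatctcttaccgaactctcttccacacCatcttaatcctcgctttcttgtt
The next closest pairs were GAUT8 and GAUT9 at 68.0% identity, GAUT12 with either GAUT13 or GAUT14 at 60.1%, and GAUT10 and GAUT11 at 59.8%. Every stretch of 50 bases within an exon block of the 10 genes, 1773 to 2552 stretches per gene, occurred at a single place in the genome. The read length is not given in the sources used here.

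Of the 10 genes, 9 had enough counts to be tested, and 3 rose in SEC, 3 fell and 3 were not called (edgeR quasi-likelihood test, adjusted p under 0.05). Over all 17246 genes tested, 28.9% were higher in SEC and 31.9% lower, 60.8% in all. The counts of the members lie near that background, and the tested members as a set did not stand out in them. The SEC and REC libraries did not overlap in CPM for 66.7% of the tested members and for 71.5% of all genes tested. The median log2 fold change was -0.85 over the tested members and -0.07 over all genes tested. By clade among the 10 genes, 2 of 2 tested members of clade C rose, clade A had 1 member higher and 2 lower, and clade B had 1 member lower and 3 not called. These counts leave out the GAUT genes outside the 10 and do not describe whole clades. No test compared the clades. The same 6 genes were called in the same direction without each library in turn, and also with RLE, upper-quartile and library-size scaling, with either other filter, with DESeq2, with limma voom, with the replicate block and at an adjusted p under 0.01.

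**Figure D1:**
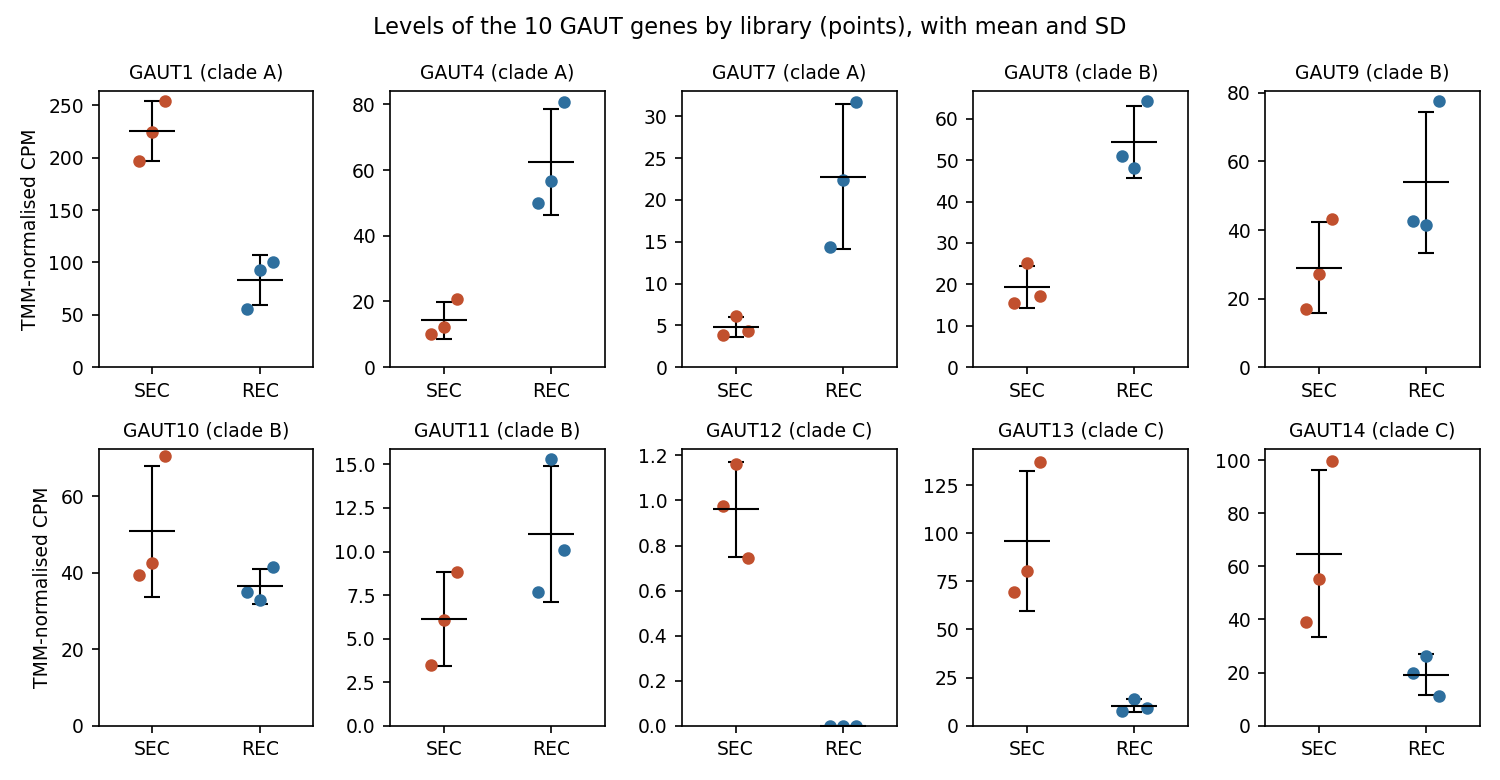
TMM-normalised CPM of each of the 10 GAUT genes (y axis, linear from 0, a scale per panel) in the 3 SEC and 3 REC libraries (points, replicates 1 to 3 from left to right), with the mean and SD of each group. GAUT1, GAUT13 and GAUT14 lie higher in every SEC library than in any REC library, GAUT4, GAUT7 and GAUT8 lower, and the groups overlap for GAUT9, GAUT10 and GAUT11. Over all genes tested, the groups did not overlap for 71.5%.

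GAUT1 (AT3G61130; chromosome 3, 22621969 to 22625716, plus strand) encodes the catalytic subunit of the best described homogalacturonan-synthesising complex. It stood at 197, 225 and 254 CPM in SEC replicates 1, 2 and 3, against 55.8, 93.0 and 100.1 CPM in REC replicates 1, 2 and 3. Every SEC library was above every REC library. The log2 fold change was 1.44 ± 0.26 (SE; edgeR adjusted p = 0.00192), a fold of 2.72, and it was 0.89 when libraries were scaled by library size alone.

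GAUT7 (AT2G38650; chromosome 2, 16161488 to 16165796, minus strand) encodes the partner that anchors GAUT1 in the Golgi membrane. It went the other way, at 3.91, 6.15 and 4.27 CPM in SEC and 14.4, 22.4 and 31.7 CPM in REC, with no overlap between the groups. Its log2 fold change was -2.25 ± 0.41 (SE; edgeR adjusted p = 0.00188).

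The ratio of GAUT1 to GAUT7, each as CPM per kilobase of exon, does not depend on how libraries are scaled. It was 49.9, 36.2 and 59.0 in the SEC libraries and 3.85, 4.12 and 3.13 in the REC libraries. The log2 ratio averaged 5.57 ± 0.36 in SEC and 1.88 ± 0.21 in REC (SD, n = 3 each), a difference of 3.69 (exact 2-sided permutation test, p = 0.1, which is the smallest p that 3 against 3 libraries can give, and 0.133 after adjustment over the 4 pairs compared).

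GAUT4 (AT5G47780; chromosome 5, 19347919 to 19350669, plus strand) is the nearest relative of GAUT1 among the members, at 56.5% coding identity. Lower GAUT4 expression in switchgrass and poplar is known to reduce wall homogalacturonan. GAUT4 fell to 10.12, 12.1 and 20.6 CPM in SEC, against 49.96, 56.6 and 80.6 CPM in REC (log2 fold change -2.13 ± 0.35, SE; edgeR adjusted p = 0.00108). GAUT1 and GAUT4 therefore had opposite directions, and the REC levels of the genes overlapped per kilobase of exon, at 20.5 to 36.8 for GAUT1 and 20.6 to 33.2 for GAUT4.

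In clade B, GAUT8 (AT3G25140; chromosome 3, 9154711 to 9156845, plus strand) was the called member. Loss of GAUT8, in the quasimodo1 mutant, weakens cell adhesion and lowers wall galacturonic acid. It had 15.5, 25.1 and 17.3 CPM in SEC and 51.0, 48.0 and 64.3 CPM in REC, with every SEC library below every REC library (log2 fold change -1.50 ± 0.28, SE; edgeR adjusted p = 0.00203). The RefSeq annotation places 191 exon bases of GAUT8 over AT3G25150 on the opposite strand, and the sources used here do not give the strand setting of the counting. GAUT8 ends at 9157012 in RefSeq, beyond its deposited end, and the overlap with this neighbour inside the deposited span was not measured. That neighbour had 125, 166 and 71 counts in SEC and 847, 1262 and 1033 counts in REC, the same direction as GAUT8. Its part in the GAUT8 counts was not tested.

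GAUT9 (AT3G02350; chromosome 3, 479006 to 481474, plus strand) is the nearest relative of GAUT8. It had 16.9, 27.1 and 43.2 CPM in SEC and 42.7, 41.6 and 77.6 CPM in REC. SEC replicate 3 reached the range of the REC libraries, and the gene was not called (log2 fold change -0.89 ± 0.40, SE; edgeR adjusted p = 0.0853). It was called lower without SEC replicate 3 (log2 fold change -1.29, adjusted p = 0.0358), and its adjusted p ranged from 0.0134 to 0.0424 under the library-size, upper-quartile, 10 CPM filter, limma voom and replicate block alternatives that also called it. The ratio of GAUT8 to GAUT9 was 0.995, 0.998 and 0.432 in SEC and 1.29, 1.25 and 0.895 in REC, which overlapped (exact permutation p = 0.3, 0.3 adjusted over the 4 pairs).

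GAUT10 (AT2G20810; chromosome 2, 8957793 to 8959780, plus strand) and GAUT11 (AT1G18580; chromosome 1, 6395864 to 6398239, plus strand) encode homogalacturonan-synthesising enzymes, GAUT11 being known for the pectin of seed mucilage. GAUT10 had 39.5, 42.5 and 70.4 CPM in SEC and 35.0, 32.8 and 41.6 CPM in REC (log2 fold change 0.48 ± 0.28, SE; edgeR adjusted p = 0.174). Its SEC replicate 1 lay within the REC range, and with library size alone the value turned to -0.07. An exon of QWRF3 (AT2G20815) begins inside the GAUT10 span on the same strand, with 66, 75 and 46 counts in SEC and 107, 64 and 85 counts in REC.

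GAUT11 was low in both groups, at 3.46, 6.08 and 8.83 CPM in SEC and 7.66, 15.3 and 10.11 CPM in REC, and the groups overlapped (log2 fold change -0.85 ± 0.48, SE; edgeR adjusted p = 0.161). With library size alone it was called lower (log2 fold change -1.40, adjusted p = 0.037). The ratio of GAUT10 to GAUT11 was 13.5, 8.24 and 9.41 in SEC and 5.38, 2.53 and 4.85 in REC, higher in all 3 SEC libraries (exact permutation p = 0.1, 0.133 adjusted over the 4 pairs).

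GAUT13 (AT3G01040; chromosome 3, 8957 to 12444, plus strand) and GAUT14 (AT5G15470; chromosome 5, 5021010 to 5024742, minus strand) act redundantly in pollen tube growth. GAUT13 had the largest fold change among the tested members. It rose to 69.5, 80.5 and 137 CPM in SEC, against 7.54, 14.1 and 9.17 CPM in REC (log2 fold change 3.22 ± 0.37, SE, a fold of 9.31; edgeR adjusted p = 0.000186).

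GAUT14 rose less, to 39.1, 55.4 and 99.8 CPM in SEC, against 19.9, 26.4 and 11.1 CPM in REC, again with no overlap (log2 fold change 1.76 ± 0.44, SE; edgeR adjusted p = 0.0084). SEC replicate 3 had the highest level of both genes. The ratio of GAUT13 to GAUT14 was 1.64, 1.34 and 1.27 in SEC and 0.350, 0.493 and 0.762 in REC. GAUT13 was thus the higher of the pair in every SEC library and the lower in every REC library (log2 difference 1.47; exact permutation p = 0.1, 0.133 adjusted over the 4 pairs). The 4 listed pollen genes (VGD1, PPME1, HAP2 and MGH3) were near 0, with summed levels of 0.0888 to 1.23 CPM in SEC and 0.0603 to 0.353 CPM in REC.

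GAUT12 (AT5G54690; chromosome 5, 22219224 to 22221840, minus strand), also called IRX8, is known for xylan synthesis in secondary walls. It had 11, 17 and 8 counts in SEC and 0 counts in each REC library, too few to pass the filter on low counts. It averaged 0.960 ± 0.210 CPM in SEC (SD, n = 3). Its 36 counts pooled over the SEC libraries were at least 16.9-fold higher than a level of 3 counts pooled over the REC libraries, each set against its scaled library totals, and at least 10.99-fold higher without REC replicate 2, the lowest bound with 1 library left out. It was called higher with no filter (edgeR adjusted p = 0.0239) and where it passed the filter without SEC replicate 3 or any 1 REC library (0.0119 to 0.0263). With 0 counts in REC, it could pass the filter only through the SEC libraries. These calls therefore add no evidence beyond the bound. Of the 5 listed xylem markers, CESA8 and XCP2 were at 0 in all libraries, and CESA7 was at 0 in SEC with 3, 1 and 1 counts in REC. XCP1 had 14, 11 and 9 counts in SEC and 0, 1 and 0 counts in REC, and CESA4 had 7, 0 and 0 counts in SEC and 109, 20 and 0 counts in REC. The xylem markers summed to 0.752 to 1.86 CPM in SEC and 0.0588 to 6.76 CPM in REC, and their part in the GAUT12 counts was not tested. RefSeq places 51 exon bases of GAUT12 over the opposite-strand gene ILR3 (AT5G54680), which had 3260, 3594 and 2335 counts in SEC and 1635, 1816 and 2204 counts in REC.

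**Figure D2:**
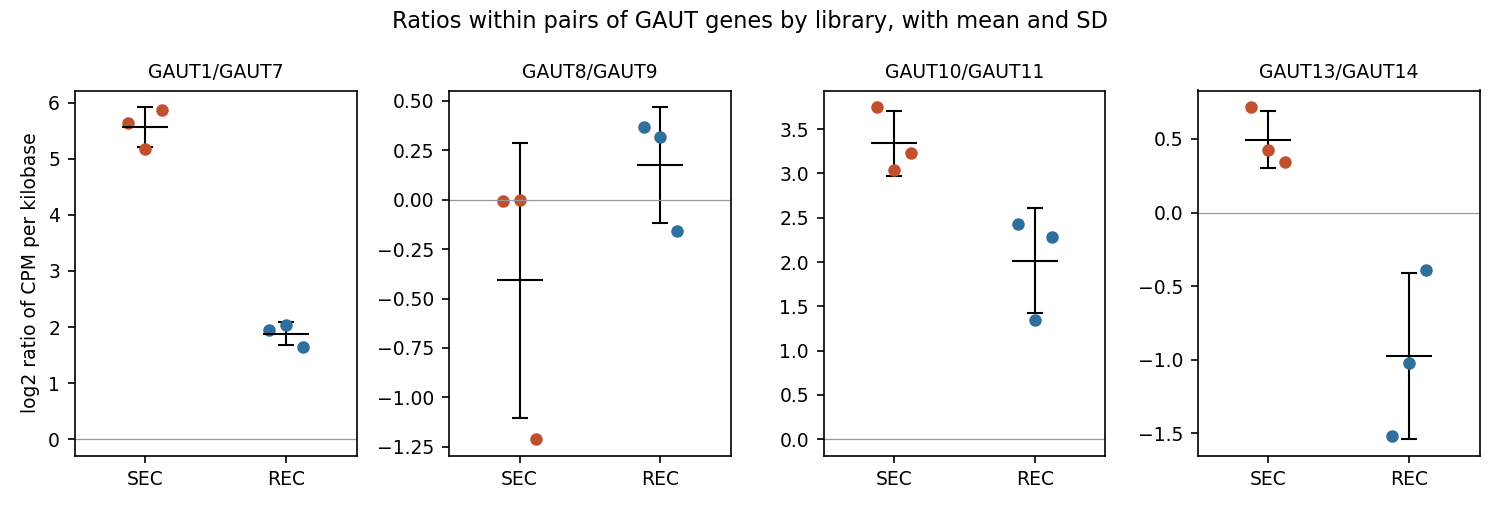
Log2 ratio of CPM per kilobase of exon within 4 pairs of GAUT genes (y axis, a scale per panel) in the SEC and REC libraries (points, replicates 1 to 3 from left to right), with the mean and SD of each group. The groups are furthest apart for GAUT1/GAUT7, at 5.57 in SEC and 1.88 in REC, and overlap for GAUT8/GAUT9.

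Per kilobase of exon, GAUT1 had the highest level of the 10 genes in both groups, at 82.9 ± 10.6 in SEC and 30.5 ± 8.77 in REC (CPM per kilobase, SD, n = 3 each). The order below it differed between the groups. In SEC, GAUT13 (33.1 ± 12.6), GAUT10 (26.5 ± 8.90) and GAUT14 (24.2 ± 11.8) followed with overlapping ranges, then GAUT9, GAUT8 and GAUT4 between 11.8 and 5.88, and GAUT11, GAUT7 and GAUT12 at 2.71 and less. In REC, neighbours in rank overlapped from GAUT1 through GAUT4 (25.7 ± 6.64), GAUT8 (23.8 ± 3.79) and GAUT9 (21.8 ± 8.29) to GAUT10 (19.0 ± 2.37). GAUT10 did not overlap GAUT7, the next in rank. GAUT7, GAUT14, GAUT11 and GAUT13 lay between 8.47 and 3.55 in REC, with overlap between neighbours in rank among them, and GAUT12 was at 0. GAUT13 was thus in second place in SEC and the lowest detected member in REC.

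As shares of the summed level per kilobase of the 10 genes, the clade C members made up 28.5 ± 4.32% in SEC and 7.70 ± 3.17% in REC (SD, n = 3 each). Clade B made up 24.8 ± 1.26% in SEC and 48.1 ± 4.39% in REC. For both shares the SEC range and the REC range were apart. The shares of the clade A members among the 10 overlapped, 46.7 ± 5.35% in SEC and 44.2 ± 4.10% in REC, but their makeup differed. GAUT1 held 42.9 ± 5.47% in SEC and 20.8 ± 3.31% in REC, while GAUT4 held 2.92 ± 0.367% in SEC and 17.6 ± 1.305% in REC. All these shares leave out the GAUT genes outside the 10, and shares that include them were not computed. Of those genes, GAUT6 averaged 42.2 CPM per kilobase in SEC and 6.19 in REC, and GAUT15 5.49 in SEC and 6.86 in REC. The share of GAUT10 was 13.3% in both groups. The summed level itself was 153, 186 and 254 CPM per kilobase in SEC and 118, 142 and 175 in REC, which overlapped, and its direction turned with library size alone (log2 difference 0.43 with TMM, -0.11 with library size).

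**Figure D3:**
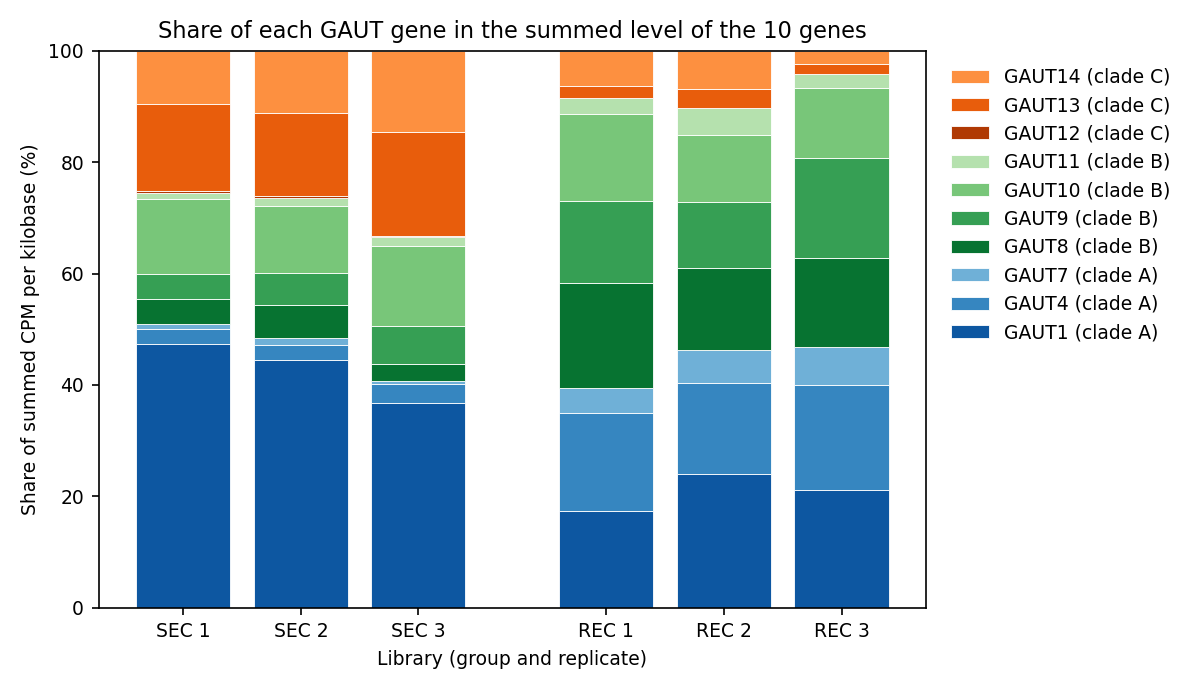
Share of each gene in the summed CPM per kilobase of exon of the 10 GAUT genes (y axis, percent) for each SEC and REC library (x axis), with clade A in blue, clade B in green and clade C in orange. Clade C takes 25.6% to 33.4% of the bars in SEC and 4.19% to 10.4% in REC, and clade B 23.4% to 25.8% in SEC and 43.4% to 52.0% in REC.

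The GAUT genes outside the 10 included both other anchors of GAUT1. GAUT5 and GAUT6 encode proteins that, like GAUT7, can hold GAUT1 in the Golgi, and both rose while GAUT7 fell. GAUT6 (AT1G06780) averaged 105 ± 15.4 CPM in SEC and 15.3 ± 4.83 CPM in REC (log2 fold change 2.77 ± 0.29, SE; edgeR adjusted p = 0.00011). GAUT5 (AT2G30575) averaged 14.1 ± 8.18 CPM in SEC and 3.33 ± 0.137 CPM in REC (log2 fold change 2.08 ± 0.49, SE; edgeR adjusted p = 0.0068), and its log2 fold change was 1.48 without SEC replicate 3. GAUT3 averaged 13.6 ± 1.22 CPM in SEC and 12.6 ± 10.2 CPM in REC, not called (log2 fold change 0.11; 0.98 without REC replicate 3, adjusted p = 0.0874). GAUT15, with 12.96 ± 3.23 CPM for SEC and 16.2 ± 3.83 CPM for REC, was not called either (log2 fold change -0.32). GAUT2 had 0 counts in every library. Of the 13 tested genes of the whole family, 5 rose, 3 fell and 5 were not called. Over all genes tested, 28.9% were higher in SEC and 31.9% lower, 60.8% in all, so the family counts are not read as a result. The median log2 fold change was 0.11 over the 13 genes and -0.07 over all genes tested.

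**Figure D4:**
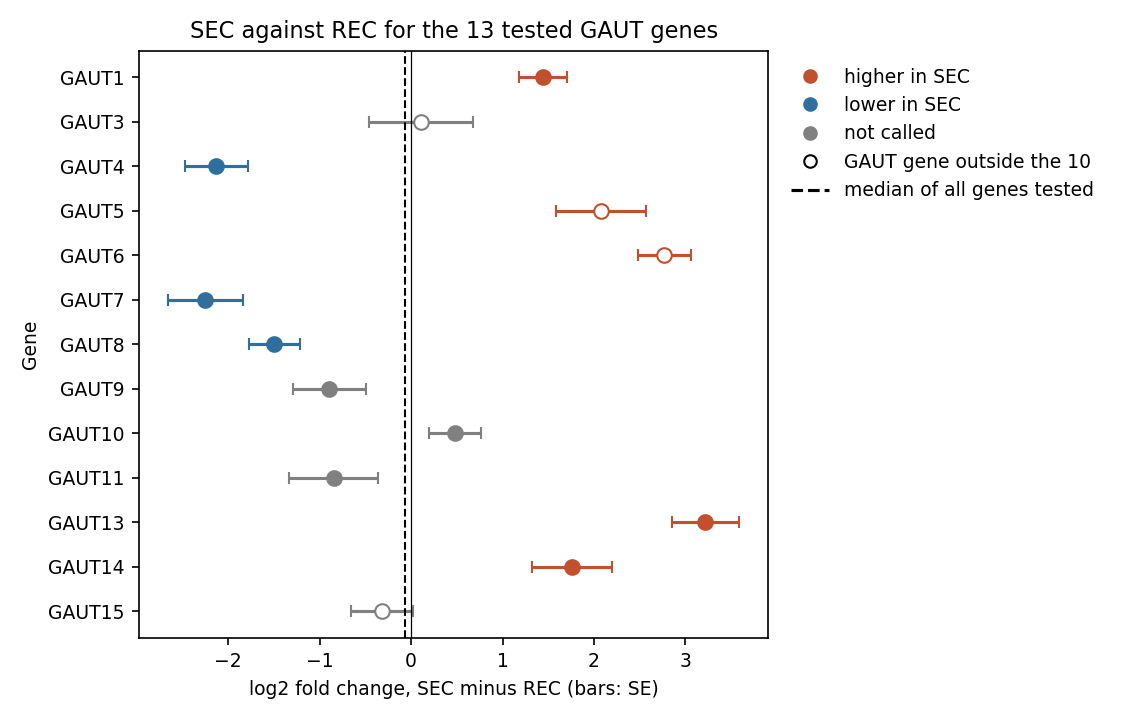
Log2 fold change of SEC minus REC (x axis, bars are SE) for the 13 tested GAUT genes (y axis), coloured by call, with open points for the 4 tested genes outside the 10 and a dashed line at the median of all genes tested. GAUT13, GAUT6, GAUT5, GAUT14 and GAUT1 lie on the side of SEC and GAUT7, GAUT4 and GAUT8 on that of REC.

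The genes whose profile over the 6 libraries was most like that of GAUT1, the member with the highest level, were MOS1 (AT4G24680, Pearson r = 0.998), NET2D (AT2G22560, r = 0.998) and MAPKKK5 (AT5G66850, r = 0.998) on log2 CPM. All 3 were higher in SEC, and the likeness is a description of 6 libraries that fall into 2 groups far apart.

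The other genes of pectin synthesis were counted from lists by their known roles. Over all genes tested, 28.9% were higher in SEC and 31.9% lower. These shares are the background for the counts of each list from here on. All 4 listed pectin methyltransferase genes fell in SEC, as did GAUT4, GAUT7 and GAUT8, while GAUT1, GAUT13 and GAUT14 rose. QUA2 (AT1G78240), whose mutants lose cell adhesion as those of GAUT8 do, averaged 11.9 ± 3.09 CPM in SEC and 48.4 ± 10.5 CPM in REC (log2 fold change -2.02 ± 0.31, SE; edgeR adjusted p = 0.000746). CGR3 (AT5G65810) had a log2 fold change of -3.30 ± 0.34 (SE) and AT3G49720, which neither the table nor the annotation names, one of -2.33 ± 0.26 (SE). QUA3 (AT4G00740), added after its values were seen, had -3.51 ± 0.86 (SE), or -1.92 without REC replicate 3. The list's median was -2.81, beside -0.07 over all genes tested.

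Of the 15 tested genes of UDP-galacturonic acid supply, 6 rose, 2 fell and 7 were not called, with a median of 0.16. GAE2 (AT1G02000) and GAE5 (AT4G12250), epimerases that make UDP-galacturonic acid from UDP-glucuronic acid, rose by log2 2.81 ± 0.30 and 3.42 ± 0.49 (SE). GAE5 averaged 204 ± 31.6 CPM in SEC and 19.0 ± 11.3 CPM in REC. UGD4 (AT5G39320) and UGD1 (AT1G26570, added after its values were seen), which oxidise UDP-glucose a step earlier, had log2 fold changes of -1.67 ± 0.25 and -2.98 ± 0.46 (SE). UGD2 and UGD3, which act at the same step and had higher levels (122 to 236 CPM in SEC and 138 to 212 CPM in REC on average), were not called (log2 fold changes -0.17 and 0.16, edgeR adjusted p = 0.517 and 0.599) and were also added after their values were seen. GAE3 and GLCAK1, both higher and also added after their values were seen, were not called with library size alone (adjusted p = 0.121 and 0.339) or upper-quartile factors (0.0703 and 0.0522). GAE3 was also not called with the replicate block (0.0608) or without REC replicate 1 or any 1 SEC library (0.0656 to 0.123), nor GLCAK1 without SEC replicate 2 (0.0773). GAE6, MIOX2 and UUAT1, among the 7 not called, were also added after their values were seen. They were called lower with upper-quartile factors, library size alone, the 10 CPM filter and limma voom (adjusted p = 0.00415 to 0.0480). UGD2 was called lower with library size alone (0.0256), and MIOX2 without REC replicate 3 (0.00803).

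Of 8 tested GAUT-like genes, GATL10 (AT3G28340), GATL7 (AT3G62660) and GATL8 rose, GATL6 fell and 4 were not called. GATL10 averaged 413 ± 49.8 CPM in SEC and 19.4 ± 5.41 CPM in REC, while GATL7 averaged 187 ± 45.6 CPM in SEC libraries and 13.7 ± 5.57 CPM in REC libraries (log2 fold changes 4.41 ± 0.28 and 3.77 ± 0.37, SE). GATL8 (AT1G24170), added after its values were seen, had a log2 fold change of 1.51 that lost its call with library size alone (adjusted p = 0.139), with upper-quartile factors (0.0583), with the replicate block (0.0556), and without REC replicate 1 or SEC replicates 1 or 3 (0.0710 to 0.0982). GATL6 (AT4G02130) had 0 counts in SEC and 71, 337 and 33 in REC, pooled at least 104-fold lower in SEC, or at least 37.9-fold lower without REC replicate 2.

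Of 5 tested genes of wall polysaccharide acetylation, RWA1 (AT5G46340), RWA2 (AT3G06550) and RWA4 (AT1G29890) fell, with log2 fold changes of -1.86 ± 0.48, -2.36 ± 0.36 and -2.06 ± 0.28 (SE), and 2 were not called. Of 12 tested genes listed for rhamnogalacturonan backbones and for side chains of pectins, homogalacturonan included, 2 rose, 4 fell and 6 were not called. XGD1 (AT5G33290), which adds xylose to homogalacturonan, averaged 195 ± 25.5 CPM in SEC and 4.28 ± 4.64 CPM in REC, with a log2 fold change of 5.50 ± 0.94 (SE) that was 6.78 without REC replicate 3. The sialyltransferase-like gene MGP2 (AT1G08660) and the galactan synthase gene GALS3 (AT4G20170) had log2 fold changes of -3.49 ± 0.27 and -2.67 ± 0.43 (SE). AT1G28240 (log2 fold change 1.36), AT5G15740 (-3.37) and MGP4 (AT4G01220, -1.74) complete the calls and were added after their values were seen. AT5G15740 was not called without SEC replicate 3 or REC replicate 2 (adjusted p = 0.0869 and 0.0931), and MGP4 was not called without REC replicate 3 or any 1 SEC library (0.0576 to 0.151), nor with the replicate block (0.0939).

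GAUT12 belongs to the xylan pathway, and among 7 other tested genes of it IRX14 (AT4G36890) and IRX7 (AT2G28110) rose, IRX15-L (AT5G67210) fell and 4 were not called. IRX7 had 730, 660 and 575 counts in SEC and 0, 0 and 99 in REC. Its log2 fold change was 4.81 ± 1.43 (SE; edgeR adjusted p = 0.0187). Without REC replicate 3 it was at least 620-fold higher in SEC, and with DESeq2 on all 6 libraries it was not called (adjusted p = 0.0863). IRX14 and IRX15-L had log2 fold changes of 1.77 ± 0.32 and -3.14 ± 0.54 (SE), the second being -2.32 without REC replicate 3. IRX9 and IRX15 had 0 counts in all libraries.

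**Figure D5:**
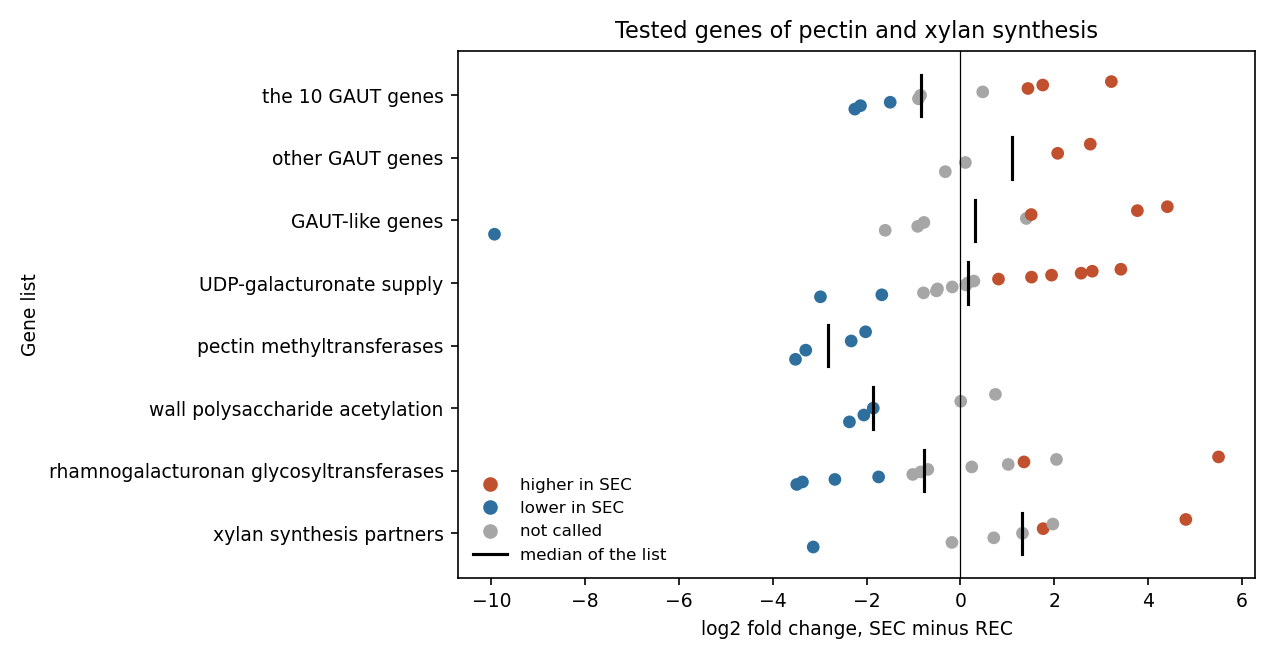
Log2 fold change of SEC minus REC (x axis) for the tested genes of each list (y axis), coloured by call, with a black line at the median of the list. All 4 pectin methyltransferase genes lie below 0, while the 9 tested GAUT genes of the 10 and the genes of UDP-galacturonate supply spread over both sides; the point near -9.93 is GATL6, which had 0 counts in SEC.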

How the data were processed

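HTSeq 0.6.1, TopHat2 2.0.9, Trimmomatic 0.32.3, Picard 1.119, DESeq2, bcl2fastq 1.8.4, FastQC 0.11.2 and the build TAIR10 are named in the submitters' processing notes, without roles. Per the labels' protocols, cDNA was amplified with 18 cycles from RNA of protoplasts. The authors deposited raw counts of reads per gene, 1 column per library. The 5 summary rows of the counter were kept out; 42.8% to 45.9% of records fell outside features and 6.86% to 11.8% at more than 1 place. For the annotation release, the strand setting and duplicate handling, the sources used here give nothing.

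The test was that of edgeR 4.0.16 in R 4.3.3 (filterByExpr, TMM factors, quasi-likelihood F test, Benjamini-Hochberg adjustment over 17246 genes, threshold 0.05). Alternatives used limma 3.58.1 and DESeq2 1.42.0. The test was run on simulated data in which few genes changed, as many up as down. That setting does not cover a comparison with 60.8% of genes called, as here. The SE is the log2 fold change over the square root of F. Exon lengths, coding sequences and overlaps came from RefSeq TAIR10.1. The RefSeq gene spans are wider than the deposited ones for every member except GAUT10. GAUT4, for example, ends at 19350976 in RefSeq and at 19350669 in the deposited positions. Levels per kilobase may therefore be divided by lengths other than those counted, unevenly among members, and the effect on ranks and shares was not tested. Gene positions are those of the table, with starts counted from 1: 14406 starts equal those of RefSeq when the table is read as counted from 0. A fold against a group at 0 counts uses 3 counts over the group, and covers counting error only; such bounds with a library left out were added after seeing the data.

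The members and lists were chosen with earlier results of these data known. Genes named outside the family are, per list, the 3 tested genes lowest in adjusted p, plus those marked as added and the 3 genes most like GAUT1.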

Additional observations from a re-analysis of the deposited data

How the results depend on the processing

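Over 125 values of the tested members under the alternatives, 124 kept their direction, no call was lost and 7 calls were gained, 6 of them for GAUT9 and 1 for GAUT11. The exception was GAUT10, at -0.070 (log2 fold change) with library size alone. Library size alone also gave 5 lower members in place of 3 and turned the summed level of the members to -0.11 (log2), as the median over all genes tested moved to -0.61 (log2 fold change). The share of all calls that were higher in SEC was 47.5% with TMM and 33.7% with library size alone. With each library left out, 3 to 4 members were higher and 3 to 4 lower. The additional ones were GAUT12, which then passed the filter through its SEC counts alone, and GAUT9. Deviations from the group means correlated across genes at r = -0.024, -0.013 and -0.017 between same-numbered SEC and REC libraries. Between differently numbered ones r was -0.034 to 0.050. These values do not show whether same-numbered libraries share an origin. A fit with the replicate block kept the 6 called members and added GAUT9 (adjusted p = 0.0276), with 4644 genes higher and 4871 lower over all genes. The low counts of GAUT12 limit its value to a bound.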
